A study of Mus musculus with 6 samples.

Results

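Before a cell copies its DNA, the origin recognition complex marks the sites where copying can start, and Cdc6 and Cdt1 load rings of MCM proteins onto them, a step called licensing, which geminin blocks once S phase has begun. The kinase Cdc7 with its partner Dbf4, together with Cdc45 and the GINS complex, then turns the loaded rings into active helicases, and the clamp Pcna with its loader holds the polymerases on the template. Many of these genes are transcribed through E2F factors, and in the developing cerebellum Sonic hedgehog (SHH) signalling keeps granule neuron progenitors, the cells from which SHH medulloblastoma grows, in this dividing state. The genes described here are 52 listed replication and S phase genes, of which 51 were measured among 22180 genes on the arrays. The remaining member, the clamp loader subunit Rfc4, was not analysed here because its feature carries another gene's symbol as well.

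Expression was measured in 6 mouse medulloblastomas with Affymetrix whole-transcript arrays, 1 array per tumour. All carried 1 allele of SmoM2, an active form of the SHH transducer Smoothened, switched on by a tamoxifen-dependent Cre under Math1 (Atoh1) control. Recombination is thus aimed at Atoh1-expressing cells, in the postnatal cerebellum the granule neuron progenitors, and not at cells of other origin in the tumour. Which cells recombined was not measured here. The 3 control tumours (Math1Cre::SmoM2Fl/+) had wild type Crebbp, and the 3 knockout tumours (Math1Cre::CrebbpFl/FlSmoM2Fl/+) had floxed Crebbp, a histone acetyltransferase gene, on both alleles. Mice of both groups received 1 mg of tamoxifen at postnatal day 5 and tumours were taken at postnatal day 60; the label for age gives day 5, which was read as the day of induction. The labels do not say that tumours of a group came from separate litters, and p-values then describe the spread among these arrays, which may in part be technical.

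Values are log2 levels, and a change is the knockout mean minus the wild type mean. Crebbp itself lay at 11.80, 11.76 and 11.70 in wild type and at 11.24, 11.34 and 11.20 in knockout tumours, without overlap, a change of -0.50 (SE 0.09, limma adjusted p = 0.0948). The deleted exons are not given, so its feature may hold probes outside the deletion. Xist lay between 5.13 and 5.74 in wild type and between 12.26 and 12.45 in knockout tumours, and the Y-linked Kdm5d between 9.32 and 9.37 against 4.59 and 4.75. Every wild type array thus had the male and every knockout array the female pattern, so that effects of genotype and of sex cannot be told apart. Atoh1, which defines the granule lineage, was bright in all tumours, from 10.93 to 11.64, against a median of 5.11 for Xist in wild type and 3 Y-linked genes in knockout arrays, where these are absent.

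Most replication genes had slightly lower means in knockout tumours, and none passed the test. Of the 51 measured members, 44 had a log2 change below 0 (86.3%, against 49.1% of all genes), with a median of -0.10 against 0.00 for all genes. The changes ran from -0.62 for Cdt1 to 0.08 for Orc3, and 15 members had a change of -0.2 or less while 0 had one of 0.2 or more. At an adjusted p of 0.05 (limma, Benjamini-Hochberg over all genes) 0 members were called, where 46 genes in all were (0.207%), 18 of them lower (0.0812%) and 28 higher (0.126%), and the smallest adjusted p of a member was 0.184, for E2f8. At an unadjusted p under 0.05, 7 members were lower (13.7%, against 6.51% of all genes) and 0 were higher (against 7.24%). In 14 members each knockout tumour had a value under each wild type tumour (27.5%, against 9.43% of all genes), and in 0 members they lay above (against 10.2%). All 51 members were among the brighter 50% of genes by mean level. In that part of the array 49.9% of genes had a change below 0, 8.84% were lower and 8.77% higher at an unadjusted p under 0.05, and 12.9% were lower without overlap.

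**Figure D1:**
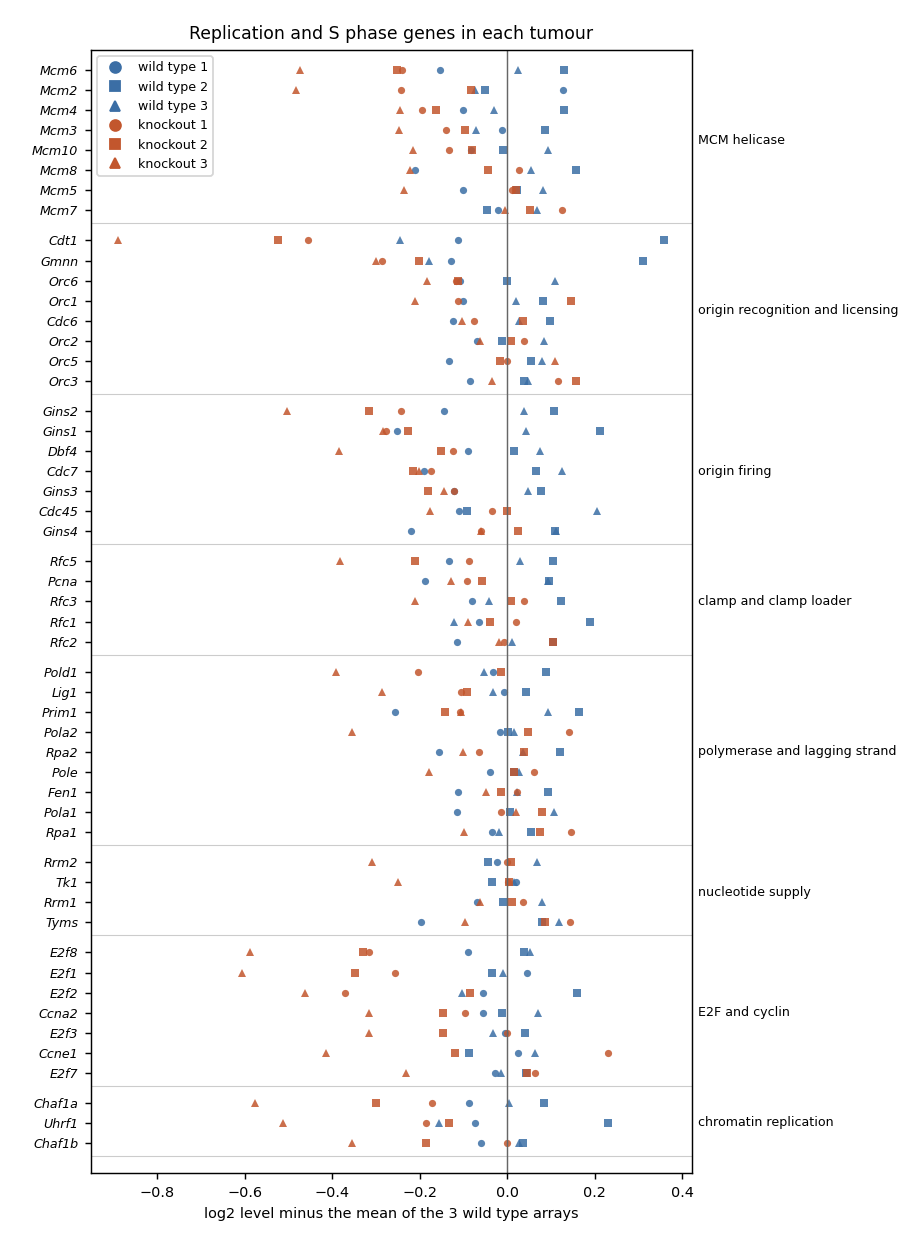
Log2 level of each measured replication and S phase gene in each of the 6 tumours, relative to the mean of the 3 wild type arrays (vertical line); blue marks wild type, orange knockout, and circles, squares and triangles replicates 1, 2 and 3. Knockout replicate 3 (orange triangles) is the lowest array for 34 of 51 genes, and 44 of 51 genes have a lower knockout than wild type mean.

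The tumours did not contribute equally to this pattern. Knockout replicate 3 was the lowest of the 6 arrays for 34 members, against 19.7% of all genes, and wild type replicate 1 was the lowest for 13, against 18.6%. Wild type replicate 2 was the highest array for 25 members, against 20.0% of all genes, and wild type replicate 3 for 13, against 17.7%. The median deviation of the members from their own means over the 6 arrays was -0.02, 0.12 and 0.08 in wild type replicates 1 to 3 and -0.02, -0.01 and -0.17 in knockout replicates 1 to 3. Wild type replicate 1 therefore lay level with knockout replicates 1 and 2, and the groups overlapped in this measure. Over the brighter 50% of genes this median deviation was -0.04 in knockout replicate 3, and from -0.02 to 0.02 in the other arrays. Knockout replicate 3 lay below the wild type mean in all but 2 members, while knockout replicates 1 and 2 lay above it in 16 and 19.

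Without knockout replicate 3, 33 of 51 members had a change below 0, the median was -0.07, and 4 members were lower at an unadjusted p under 0.05 (against 4.66% of all genes). Groups then did not overlap, with knockout lower, in 14 members (27.5%, against 13.8% of all genes), and with knockout higher in 4 (against 16%). Without wild type replicate 1, 48 of 51 were below 0, the median was -0.17, and groups did not overlap, with knockout lower, in 25 members (49%, against 15% of all genes). Without wild type replicate 2, 4 members were lower at an unadjusted p under 0.05, against 4.57% of all genes.

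**Figure D2:**
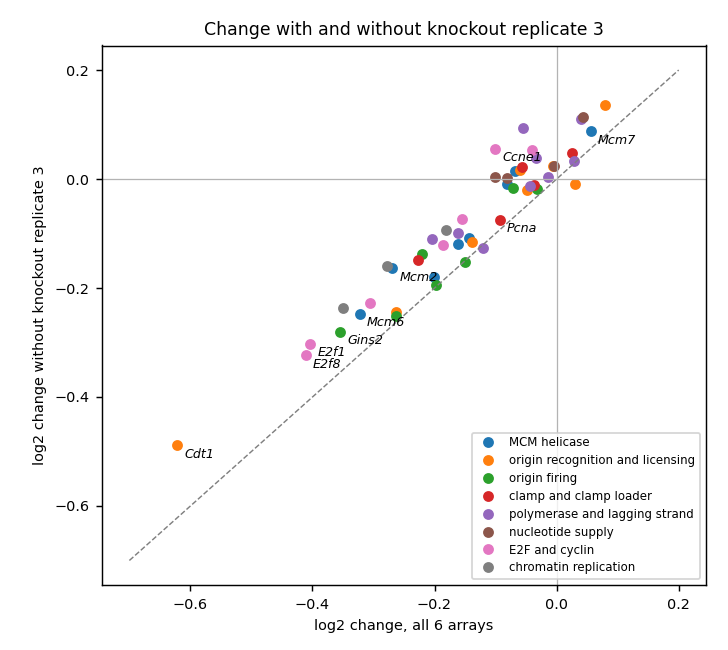
Log2 change (knockout minus wild type) of each of the 51 genes with all 6 arrays (horizontal axis) and without knockout replicate 3 (vertical axis), coloured by role; the dashed line marks equal values. Most genes lie above the line, with a less negative or more positive change without that array. Cdt1, E2f8, E2f1 and Gins2 keep the lowest values, -0.49, -0.32, -0.30 and -0.28.

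Among the factors that license origins, the largest difference was in Cdt1, which brings the MCM ring to the origin complex. Cdt1 measured 9.50, 9.97 and 9.36 in wild type and 9.15, 9.09 and 8.72 in knockout tumours. All knockout values were lower, although the wild type tumours themselves spanned a wide range. The change was -0.62 (SE 0.18, unadjusted p = 0.00945, limma adjusted p = 0.222), 1.54-fold on a linear scale, and it was -0.49 without knockout replicate 3. Gmnn, which encodes the Cdt1 inhibitor geminin, had levels of 8.16, 8.60 and 8.11 in wild type and 8.005, 8.09 and 7.99 in knockout tumours. Its groups were separated by a narrow gap, and wild type replicate 2 stood above the rest. The change was -0.26 (SE 0.14, adjusted p = 0.457), so that Cdt1 and its inhibitor had means lower in the same group.

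The other loader, Cdc6, had levels of 9.02, 9.24 and 9.17 in wild type and 9.07, 9.18 and 9.04 in knockout tumours, and the groups overlapped. Its change was -0.05, with a 95% interval of -0.27 to 0.18. The subunits of the origin recognition complex showed small changes of either sign: -0.14 for Orc6, -0.06 for Orc1, -0.01 for Orc2, 0.03 for Orc5 and 0.08 for Orc3. Orc6 was the member of this complex whose groups did not overlap. Of all genes 9.43%, and of the brighter 50% of genes 12.9%, were lower without overlap. Orc3, the gene with the largest positive change of all members, had levels of 10.24, 10.36 and 10.37 in wild type and 10.44, 10.48 and 10.29 in knockout tumours. Its knockout replicate 3 lay within the wild type range, and the adjusted p was 0.77.

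The MCM genes encode the ring-shaped helicase core and related proteins, and 7 of the 8 measured had a change below 0, with a median of -0.15. The groups did not overlap in Mcm2, Mcm3, Mcm4 and Mcm6, 4 of 8, where 9.43% of all genes and 12.9% of the brighter 50% were lower without overlap. Mcm6 had levels of 11.44, 11.73 and 11.62 in wild type and 11.36, 11.35 and 11.12 in knockout tumours. Its change was -0.32 (SE 0.11, unadjusted p = 0.0222, adjusted p = 0.287). Mcm6 was the one MCM gene with an unadjusted p under 0.05 (12.5% of the 8, against 6.51% of all genes lower). Mcm2 had levels of 10.96, 10.78 and 10.76 in wild type and 10.59, 10.75 and 10.35 in knockout tumours, a change of -0.27 (SE 0.12, adjusted p = 0.389). Here knockout replicate 2 came close to the lowest wild type value, while knockout replicate 3 was far below it. Mcm4 had levels of 10.70, 10.94 and 10.78 against 10.61, 10.64 and 10.56, a change of -0.20 (SE 0.10).

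Not every subunit of the ring showed this direction. Mcm7 had levels of 11.23, 11.20 and 11.32 in wild type and 11.37, 11.30 and 11.24 in knockout tumours, with a change of 0.06 and a 95% interval of -0.15 to 0.26. Mcm5 had a change of -0.07 (95% interval -0.32 to 0.18). The groups overlapped in both genes. Mcm3 lay at -0.16, Mcm10, a factor that acts as the helicase is activated, at -0.14, and Mcm8, which works in recombination repair rather than in the ring, at -0.08.

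All 7 measured genes of origin firing had a change below 0, with a median of -0.20. Gins2, a subunit of the GINS complex that joins the MCM ring to form the active helicase, had levels of 9.03, 9.28 and 9.21 in wild type and 8.93, 8.86 and 8.67 in knockout tumours. Each knockout value was below each wild type value, with a change of -0.35 (SE 0.11, unadjusted p = 0.0133, adjusted p = 0.238). Gins1 had levels of 9.23, 9.69 and 9.52 against 9.20, 9.25 and 9.19, a change of -0.26 (SE 0.13). Its knockout tumours were nearly alike, and wild type replicate 1 lay among them. Dbf4, the regulatory partner of the Cdc7 kinase, had levels of 9.47, 9.57 and 9.63 against 9.43, 9.41 and 9.17, without overlap, a change of -0.22 (SE 0.11, adjusted p = 0.408). Cdc7 itself had a change of -0.20 with wild type replicate 1 inside the knockout range, Gins3 one of -0.15, Cdc45 one of -0.07 and Gins4 one of -0.03.

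Of 5 clamp and clamp loader genes, 4 had a change below 0, with a median of -0.06. An unadjusted p under 0.05 was found for 0 of them, against 13.8% of all genes in either direction. Pcna, the sliding clamp, had levels of 12.05, 12.33 and 12.33 in wild type and 12.14, 12.17 and 12.10 in knockout tumours. The knockout tumours lay inside the wild type range, which wild type replicate 1 extended downward, and the change was -0.09 (95% interval -0.34 to 0.15). Of the clamp loader genes, Rfc5 had levels of 9.30, 9.54 and 9.46 against 9.34, 9.22 and 9.05, a change of -0.23 (SE 0.11, adjusted p = 0.427), with overlap. Rfc1, Rfc2 and Rfc3 lay between -0.06 and 0.03.

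Of 9 genes of the polymerases and the lagging strand, 7 had a change below 0, with a median of -0.04. An unadjusted p under 0.05 was found for 0 of them, against 13.8% of all genes in either direction. The DNA ligase gene Lig1 was the one whose groups did not overlap (11.1%, against 9.43% of all genes lower without overlap), with a change of -0.16. The catalytic subunit of polymerase delta, Pold1, lay at -0.20 and the primase subunit Prim1 at -0.12. Pola1, the catalytic subunit of polymerase alpha and the one X-linked member, had levels of 9.77, 9.89 and 9.99 in wild type and 9.87, 9.97 and 9.91 in knockout tumours. Its groups overlapped, with a change of 0.03 (95% interval -0.19 to 0.25). Pola2, Pole, Fen1, Rpa1 and Rpa2 lay between -0.06 and 0.04.

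For nucleotide supply, the ribonucleotide reductase subunit gene Rrm2 had levels of 10.05, 10.03 and 10.15 in wild type and 10.08, 10.09 and 9.77 in knockout tumours. Knockout replicate 3 alone was outside the wild type range, and the change of -0.10 (95% interval -0.36 to 0.16) was 0.00 without that array. Tyms, thymidylate synthase, had levels of 9.36, 9.63 and 9.67 against 9.70, 9.64 and 9.46, a change of 0.04 (95% interval -0.23 to 0.32). Rrm1 lay at -0.0048 and the thymidine kinase gene Tk1 at -0.08. The second, dimmer feature of Rrm2 had a change of -0.97 and those of Fen1 and Rpa1 changes of -0.44 and -0.40. The features used had changes of -0.10, -0.01 and 0.04, so features of these genes disagreed. The dimmer features of Rrm2 and Rpa1 had means of 5.99 and 5.69, near the 5.11 of absent sex-linked genes, and that of Fen1 6.995. For Pole, which also has a second feature, both lay at -0.03.

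The E2F genes, which encode the transcription factors of this programme, included the 2 members with the smallest p. All 7 measured E2F and cyclin genes had a change below 0, with a median of -0.19. Of them, 3 were lower at an unadjusted p under 0.05 (42.9%, against 6.51% of all genes and 8.84% of the brighter 50%). E2f8, an atypical E2F that represses other E2F targets, had levels of 9.19, 9.32 and 9.33 in wild type and 8.96, 8.95 and 8.69 in knockout tumours. The groups were well apart, with a change of -0.41 (SE 0.11, unadjusted p = 0.00518, adjusted p = 0.184). E2f1, an activator of replication genes, had levels of 9.78, 9.70 and 9.73 against 9.48, 9.39 and 9.13. Wild type tumours lay close together and above all knockout tumours, with a change of -0.40 (SE 0.11, unadjusted p = 0.00695, adjusted p = 0.198). Activator and repressor thus had lower means in the same tumours.

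E2f2, another activator, had levels of 8.01, 8.22 and 7.96 in wild type and 7.69, 7.98 and 7.60 in knockout tumours. Knockout replicate 2 reached into the wild type range, and the change was -0.31 (SE 0.13, unadjusted p = 0.0449, adjusted p = 0.347). E2f3 lay at -0.15 and the other atypical member, E2f7, at -0.04. Ccna2, the cyclin of S phase and G2, had levels of 11.51, 11.55 and 11.63 against 11.47, 11.42 and 11.25, without overlap, and a change of -0.19 (SE 0.10, adjusted p = 0.446). Ccne1, the cyclin of S phase entry, had levels of 8.01, 7.90 and 8.05 against 8.22, 7.87 and 7.57. Its knockout tumours held both the highest and the lowest value of the 6, and the change was -0.10 with a 95% interval of -0.47 to 0.27.

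Chromatin is rebuilt behind the fork by the chaperone CAF-1, and DNA methylation is copied with the help of Uhrf1. Chaf1a, the large CAF-1 subunit, had levels of 8.89, 9.06 and 8.98 in wild type and 8.80, 8.68 and 8.40 in knockout tumours. All knockout values were lower, with a change of -0.35 (SE 0.12, unadjusted p = 0.0217, adjusted p = 0.284). Uhrf1 had a change of -0.28 and Chaf1b one of -0.18, both with overlapping groups. Dnmt1, the maintenance methyltransferase that Uhrf1 recruits, had levels of 11.23, 11.25 and 11.22 against 11.10, 11.13 and 10.96, a change of -0.17 (SE 0.09, adjusted p = 0.448) without overlap.

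**Figure D3:**
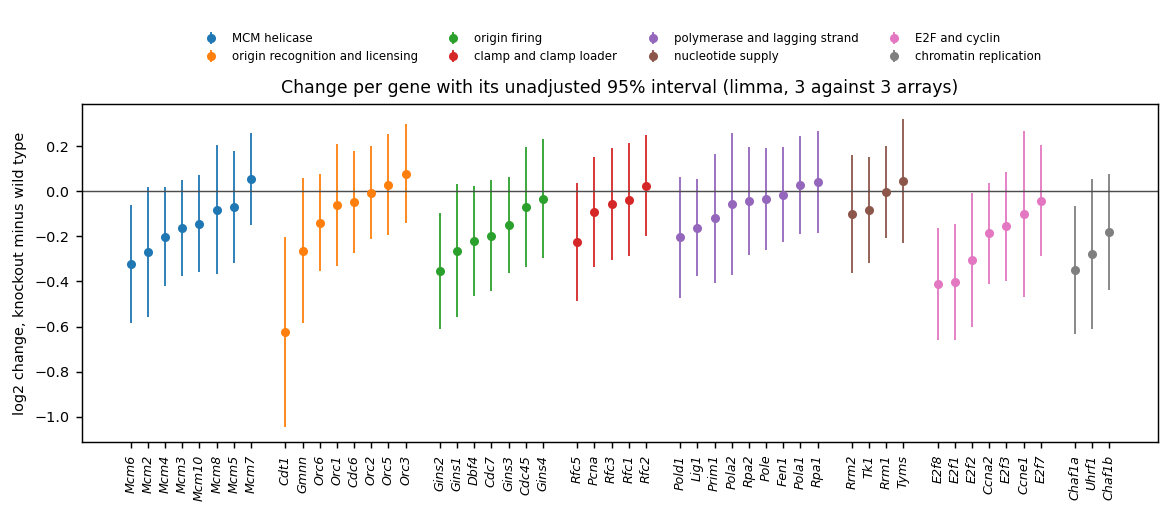
Log2 change (knockout minus wild type, vertical axis) of the 51 genes, grouped by role, with the unadjusted 95% interval from limma on 3 against 3 arrays. The intervals of 7 genes (E2f8, E2f1, Cdt1, Gins2, Chaf1a, Mcm6 and E2f2) lie below 0, and 0 of the 51 genes passed the adjusted threshold.

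Because E2F factors act at many of these genes, the letters of E2F words were looked for in the RefSeq promoter windows (GRCm38.p6, 250 bases before to 50 after an annotated start), which matched 43 of the 51 members with 52 windows. The words were TTTCCCGC, TTTCGCGC, TTTGCCGC and TTTGGCGC on either strand, with overlapping words counted as 1 site. They occurred in 18 of 52 member windows (34.6%) and in 2.85% of the 20611 windows of all genes tested. Member windows had a median GC content of 61.8% against 56.7%, and the shares were not adjusted for it. The following stretches show the words (capitals) with up to 9 bases on either side for each helicase, licensing and E2F member that has one, read 5′ to 3′ on the gene's strand.
Mcm3 (chr1:20820277-20820302, minus strand): acttccgtgGCGGGAAAacttgggaa
Mcm3 (chr1:20820263-20820283, minus strand): ttgggaagtTTTGGCGCcaag
Mcm5 (chr8:75109347-75109376, plus strand): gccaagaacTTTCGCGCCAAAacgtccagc
Mcm6 (chr1:128359795-128359824, minus strand): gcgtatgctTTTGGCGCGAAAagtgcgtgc
Mcm6 (chr1:128359736-128359761, minus strand): ttggacgggTTTGGCGCgaagtagct
Mcm7 (chr5:138172032-138172057, minus strand): tttcgaaccGCGGGAAAcagggtgtc
Mcm7 (chr5:138171851-138171876, minus strand): gtgacgacgTTTCGCGCcaatttcgg
Mcm8 (chr2:132816171-132816190, plus strand): gtcatagacGCGCCAAAaaa
Orc1 (chr4:108579418-108579443, plus strand): cggttagtgGCGCGAAAagttttctc
Orc3 (chr4:34614967-34614992, minus strand): atgcctcccTTTCCCGCacgccccgc
Cdc6 (chr11:98908004-98908029, plus strand): cggtggagaGCGGGAAAtcgcctggg
Cdt1 (chr8:122568038-122568063, plus strand): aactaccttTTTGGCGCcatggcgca
E2f2 (chr4:136172304-136172323, plus strand): ggcatatagTTTGGCGCtaa
E2f3 (chr13:29986058-29986083, minus strand): gaaaagccgGCGGGAAAtctgagttt
E2f7 (chr10:110745232-110745257, plus strand): cgcgtccccGCGGGAAAcgctcccgc

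Words from both strands were joined in Mcm5 and in the first site of Mcm6, and the Orc3 word was TTTCCCGC, 41 bases before the start. The word lay after the annotated start in Cdt1 (from base 33), E2f2 and Mcm8 (from base 40), at both sites of Mcm3 (from bases 20 and 39) and at the second site of Mcm7 (from base 17). The annotated start used lay 3749 bases inside the gene for Orc1, 442 for Cdc6, 228 for Mcm7, 41 for Mcm5 and 21 for Orc3, so that these stretches need not belong to the main promoter. The 18 members with one had a median change of -0.12 and the 25 without one of -0.10. Mcm7, with 2 sites and a change of 0.06, and Mcm6, also with 2 sites and a change of -0.32, stand side by side in this respect. The CCAAT box (CCAAT) was in 59.6% of member windows against 37.7% of all, the CHR element (TTTGAA) in 19.2% against 15.4% and the cAMP response element (TGACGTCA), which CREB binds, in 3.85% against 2.32%. A match is a match of letters and not evidence of binding.

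The 250 bases before the annotated start are shown for Mcm6, Cdt1 and Chaf1a, which were among the 6 members with the smallest unadjusted p and whose annotated start is the outer edge of the gene; capitals mark E2F words.
Mcm6 (chr1:128359706-128359955, minus strand): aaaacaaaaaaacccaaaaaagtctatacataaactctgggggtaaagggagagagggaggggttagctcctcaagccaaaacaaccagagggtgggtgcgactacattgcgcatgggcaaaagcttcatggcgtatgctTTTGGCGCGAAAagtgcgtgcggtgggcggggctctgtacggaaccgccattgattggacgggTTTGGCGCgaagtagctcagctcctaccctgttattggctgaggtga
Cdt1 (chr8:122567765-122568014, plus strand): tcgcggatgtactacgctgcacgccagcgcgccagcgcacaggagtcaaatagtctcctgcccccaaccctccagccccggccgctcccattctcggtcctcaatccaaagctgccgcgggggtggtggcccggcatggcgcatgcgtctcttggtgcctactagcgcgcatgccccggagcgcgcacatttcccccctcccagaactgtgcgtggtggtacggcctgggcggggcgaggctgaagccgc
Chaf1a (chr17:56040166-56040415, plus strand): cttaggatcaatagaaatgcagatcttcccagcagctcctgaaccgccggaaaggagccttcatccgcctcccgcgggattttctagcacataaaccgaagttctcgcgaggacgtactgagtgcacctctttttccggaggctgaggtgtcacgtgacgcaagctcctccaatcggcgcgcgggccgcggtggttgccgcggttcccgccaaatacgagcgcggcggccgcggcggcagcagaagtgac
The stretch of Mcm6 holds both of its sites, while those of Cdt1 and Chaf1a hold none of the 4 words before the start. Only exact matches to the words were marked, so near matches, which the stretch of Chaf1a holds, do not show. The windows of E2f1 and E2f8, whose starts lie 466 and 477 bases inside the gene, held no E2F word and are not shown.

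The rest of the replication machinery, from a separate list, also had mostly negative changes. Of 52 measured genes 37 had a change below 0 (71.2%), with a median of -0.05. At an unadjusted p under 0.05, 3 were lower (5.77%, against 6.51% of all genes) and 1 was higher (against 7.24%), and 0 passed over all genes. Groups did not overlap, with knockout lower, in 9 (17.3%, against 9.43% of all genes and 12.9% of the brighter 50%). Dctd, deoxycytidylate deaminase, had levels of 7.71, 8.07 and 8.12 in wild type and 8.89, 8.83 and 8.37 in knockout tumours, a change of 0.73 (SE 0.17, adjusted p = 0.153). Dut, the enzyme that removes dUTP and so supplies the substrate for thymidylate, had levels of 9.98, 10.25 and 10.004 against 9.67, 9.68 and 9.76, a change of -0.37 (SE 0.10, adjusted p = 0.197). The means of these neighbouring steps of thymidylate supply thus differed in opposite directions, each without overlap, next to Tyms at 0.04.

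Rnaseh2b, a subunit of the enzyme that removes ribonucleotides from DNA, had levels of 10.64, 10.75 and 10.66 against 10.38, 9.87 and 10.16, a change of -0.55 (SE 0.13, adjusted p = 0.174). Mcmbp, which binds MCM proteins, lay at -0.22 (SE 0.09, adjusted p = 0.334), and Cdk2, the kinase partner of cyclins E and A, at 0.11 (95% interval -0.09 to 0.31). Of 19 mitosis genes, which follow S phase, 19 had a change below 0, with a median of -0.18; 5 were lower at an unadjusted p under 0.05 (26.3%, against 6.51% of all genes and 8.84% of the brighter 50%) and 0 passed over all genes. Foxm1, which activates mitotic genes, lay at -0.54 (SE 0.16, adjusted p = 0.221) and Mki67 at -0.35 (SE 0.10, adjusted p = 0.231).

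These are bulk tumours, so fewer dividing cells and less RNA of these genes per cell cannot be told apart, and markers of several cell types differed between the same arrays. For microglia and macrophage markers 14 of 15 had a change below 0. The list's summed level, the log2 of its genes' summed linear levels, ran from 13.65 to 13.83 in wild type tumours. In knockout tumours it ran from 13.19 to 13.56, lowest in knockout replicate 3. Such a sum, given below for each list, follows mainly the brightest genes and can hide changes of dimmer ones. Fcgr3 lay at -0.79 and Ctss at -0.57. For Purkinje cell and inhibitory neuron markers 11 of 12 were above 0, and the summed level ran from 11.69 to 11.97 in wild type and from 11.90 to 12.59 in knockout tumours, with Gad1 at 0.47 and Lhx1 at -0.49. Astrocyte and Bergmann glia markers were above 0 in 11 of 14, from 13.87 to 14.76 against 14.58 to 14.68, with Sox2 at 0.45 and Aldoc at 1.47.

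Granule neuron progenitor genes were below 0 in 12 of 17, and their summed level ran from 15.45 to 15.59 in wild type and from 15.23 to 15.39 in knockout tumours. In that list Ccnd2, a cyclin that SHH signalling raises in these cells, lay at -0.69, and the SHH antagonist Hhip at 1.46. Ptch1 and Gli1, SHH pathway genes of the same list, were also above 0, at 0.33 and 0.30, each without overlap. Other genes of that list went the other way. Gli2 lay at -0.24, Mycn at -0.39 and Sfrp1 at -0.37, each without overlap, and Ccnd1 at -0.24 with overlap. Whether SHH signalling differed between the groups was not tested. Differentiating granule neuron genes were below 0 in 8 of 16, from 14.50 to 14.78 against 14.53 to 14.78, with Neurod1 at -1.13 and Cbln3 at 2.29. The groups overlapped in Cbln3, where knockout replicate 2 (8.17) lay below wild type replicate 3 (8.36). Oligodendrocyte lineage markers were below 0 in 9 of 11 (13.14 to 13.49 against 12.96 to 12.98), with Pdgfra at -0.45 and Sox10 at -0.69. The remaining lists were endothelium and pericyte (5 of 12 below 0, 11.71 to 11.90 against 11.76 to 12.19, Tek at 0.50 and Vtn at 0.74), lymphocyte (7 of 9, 9.81 to 9.83 against 9.56 to 9.72, Cd79a at -0.32 and Ptprc at -0.48) and fibroblast and meninges (2 of 10, 12.68 to 12.93 against 12.71 to 12.77, Igf2 at 1.39 and Pdgfra as above). No listed marker had a mean at or below 5.11, the median of absent sex-linked genes. Single values of those absent genes, however, ran from 4.31 to 5.74. Ms4a1 (group means 5.19 and 5.25) and Lhx5 (5.61 and 5.66) lay in that range, so their expression is uncertain. Of the genes named for a small p, Aldoc, Sox10, Vtn and Ptprc also had overlapping groups. Across these lists 0 marker genes passed over all genes, and the part of these cell types in the replication values was not tested.

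**Figure D4:**
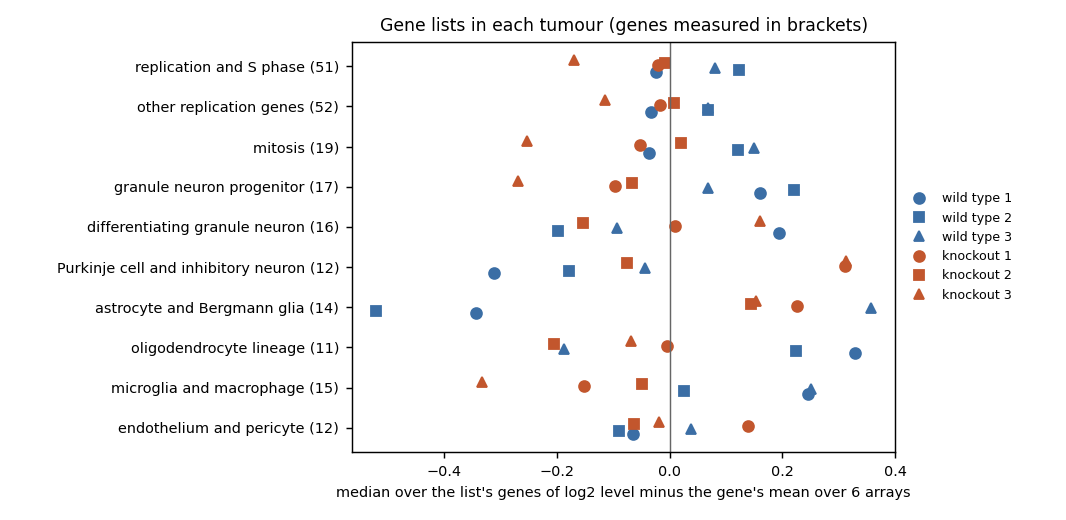
Median, over the genes of each list, of the log2 level minus the gene's mean over 6 arrays (horizontal axis), for each tumour; blue marks wild type, orange knockout, and the shapes replicates 1 to 3. Replication, other replication and mitosis genes have knockout replicate 3 lowest (-0.17, -0.11 and -0.25), and wild type replicate 1 lies close to knockout replicates 1 and 2 in all 3 lists.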

How the data were processed

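The deposited values are log2 levels. Per the submitters' processing notes the authors used RMA from oligo, with no version named. RMA corrects background, gives arrays a common distribution and summarises probes per feature, which would take out a shift common to most genes and shrinks changes of dim features. The array's genome build is not given in the sources used here. Of 41345 features, 23521 had 1 gene symbol, 1814 several and 16010 none here. For each gene the feature with the highest mean over 6 arrays was used, with no filter on level. Samples were grouped by title.

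The deposited values were tested with limma 3.58.1 in R 4.3.3 (lmFit, eBayes without trend, two-sided, Benjamini-Hochberg over 22180 genes, threshold 0.05), after the code was tested on simulated data. With 3 arrays per group their number limits the precision. The members and lists were chosen with earlier results of these data known, so no list was tested; counts are set beside those of all genes. Per-tumour values are given for the 12 members with the smallest p, the 3 largest changes each way and 10 preset genes (Mcm2, Pcna, Cdt1, Gmnn, Cdc6, E2f1, Ccne1, Ccna2, Rrm2, Pola1). From the other replication list the 4 genes with the smallest p and Ccne2 (not analysed here), Cdk2 and Dnmt1 are named. From each marker list the 2 with the smallest p are named, with Ptch1, Gli1, Gli2, Mycn, Sfrp1, Ccnd1, Ms4a1 and Lhx5 in addition. List genes without a feature of a single symbol were not analysed here. Alternatives covered array scaling, dim genes, the variance model, array weights, features per gene, sex chromosomes, a replicate block and leaving out each array. Promoter sequences are from RefSeq.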

Additional observations from a re-analysis of the deposited data

How the results depend on the processing

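No member passed the threshold under any of the 15 alternatives, and the smallest adjusted p of a member was 0.108, without the dimmest 50% of genes. The median change of the members stayed below 0 in each, between -0.17 without wild type replicate 1 and -0.07 with array weights or without knockout replicate 3. The number of genes called over the whole array, 46, was 137 with a trended and robust variance model and 77 without the dimmest 25% of genes, and between 4 (without knockout replicate 3) and 128 (without knockout replicate 2) when an array was left out. Lower members at an unadjusted p under 0.05, 7 in all arrays, numbered 11 with the trended and robust model (where 7.12% of all genes were lower) and between 4 (without knockout replicate 3 or wild type replicate 2, 4.66% and 4.57% of all genes) and 10 (without wild type replicate 1, 5.33%) when an array was left out. With the replicate block 12 genes were called and 8 members were lower at an unadjusted p under 0.05 (6.72% of all genes). Deviations of same-numbered arrays correlated at -0.03, 0.05 and 0.10, so the numbers were not taken as pairs. Over all 51 members, 13 changes reversed without knockout replicate 3, 6 without wild type replicate 2 and 0 to 4 in each other setting. Of 329 recalculated changes of the 22 named members 7 reversed, in 5 genes. With single arrays left out, Tyms ranged from -0.054 (without wild type replicate 1) to 0.114, and was -0.0055 without knockout replicate 1. Cdc6 ranged from -0.110 to 0.00047 (without wild type replicate 2), Ccne1 from -0.266 to 0.056 and Rrm2 from -0.155 to 0.0041 (both highest without knockout replicate 3). Pola1 ranged from -0.029 (without wild type replicate 1) to 0.0815, and was -0.00058 after subtracting array medians. With the mean of its features Rrm2 was -0.54, since its dimmer feature had the larger change. The causes of the other moves were not tested. Subtracting array medians moved the median of all genes from 0.00 to -0.02. Differences near 0.1 on the log2 scale are within the intervals of single genes with 3 arrays per group.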
